A study of Bos taurus with 15 samples.

Results

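The leukocytes of the adult (AD) small intestine were compared with those of the adult large intestine in 4 single-cell RNA libraries, duodenum and jejunum on one side and cecum and colon on the other. A barcode was taken as a leukocyte if it had 500 to 4000 detected genes, fewer than 50000 unique molecular identifiers (UMIs, each counting 1 captured RNA molecule), at least 1 UMI of *PTPRC* (CD45, the phosphatase carried by nearly all leukocytes) and 0 UMIs of *EPCAM* (the surface adhesion protein of epithelial cells). This gave 29816 leukocytes, of 49166 barcodes in the 4 libraries and of 53788 barcodes that passed the same rule in the whole series of 15 libraries. Duodenum held 7759 of them, jejunum 7013, cecum 7519 and colon 7525.

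All AD tissue came from a single lactating Holstein cow, with 1 library for each intestinal segment and no agent or genetic change in any group. The outer muscle layers had been removed, and red blood cells had been lysed. The pair of libraries on each side are different segments and not repeats, so the p-values below measure the spread among 4 libraries of 1 animal and not the spread between cattle. Duodenum and cecum were dissociated with a lamina propria kit for 30 min, and jejunum and colon with a multi tissue kit for 41 min, so each kit occurs once on each side. The newborn (NB) libraries of the same segments came from a group of 3 calves, and the labels and the methods text do not say which calf gave which library. Their tissue went through EDTA and trypsin before the kit.

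The gut wall holds leukocytes in its epithelium and in the lamina propria beneath it, most of them T cells, plasma cells and macrophages. T and B cells are steered to a segment by receptors on their surface. CCR9 binds CCL25, a chemokine made by the epithelium of the small intestine, and is induced by retinoic acid when a lymphocyte is first activated. GPR15 directs T cells to the large intestine.

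The *PTPRC* level, which the rule itself used and which is given only as a description, was 747 CPM (a UMI count scaled to the total of its library) in duodenum, 541 in jejunum, 793 in cecum and 868 in colon. Barcodes just inside the limit, with 1 UMI of *PTPRC*, made up 23.7, 31.3, 20.5 and 16.9% of these leukocytes, so jejunum had the most and colon the fewest. Of barcodes that met the *PTPRC* and *EPCAM* conditions, 11, 20, 4 and 7 had at most 10 genes too few for the gene limit, and 12, 23, 3 and 13 were kept with fewer than 10 genes to spare. The median leukocyte carried 3752, 4641, 3704 and 3986 UMIs in the same order, and mitochondrial genes took a median of 7.37, 5.12, 7.12 and 7.05% of them. Any pair of libraries shared 15 to 21 barcode sequences, at most 0.279% of the smaller one. Summed over leukocytes, the libraries held 34819784, 41864578, 32458346 and 34954713 UMIs. Unless another order is stated, lists of 4 values run duodenum, jejunum, cecum, colon.

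T-like barcodes, defined by at least 2 UMIs of *CD3D*, *CD3E* and *CD3G* together, formed most of the large intestine leukocytes and a smaller part of those in the small intestine. They were 76.9% of leukocytes in duodenum (95% exact binomial interval 75.9 to 77.8%) and 42.4% in jejunum (41.2 to 43.6%), against 89.9% in cecum (89.2 to 90.6%) and 91.9% in colon (91.2 to 92.5%). Both small intestine shares lay below both large intestine shares, with jejunum far below the rest. Macrophage-like barcodes, at 5 or more UMIs of *CSF1R*, *CD14*, *CD68* and the complement genes *C1QA*, *C1QB* and *C1QC*, ran the other way, at 5.63 and 33.2% in duodenum and jejunum against 1.13 and 1.53% in cecum and colon. B-like barcodes made up 4.45, 1.34, 3.63 and 1.70%, so the sides overlapped. The intervals cover counting error only, and no test of shares was run. A permutation test of 2 against 2 libraries could not have given a two-sided p below 0.333.

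A group at 3 or more UMIs of dendritic cell markers took 1.53, 11.8, 0.359 and 0.332% of leukocytes, and 0.504, 3.48, 0.0808 and 0.0679% after thinning each barcode to 1500 UMIs. Its leading genes over the other classes were *FABP1* and *FABP2*, fatty acid binding proteins of the absorptive epithelium, followed by *FLT3*, so it is called the FLT3 group here and is not named as a cell type. Plasma-like barcodes were 1.46, 1.63, 0.186 and 0.385%, only 14 in cecum and 29 in colon, too few for a contrast of their own. Of them, 71.7, 42.1, 71.4 and 72.4% had a single UMI of *PTPRC*, the limit of the rule. Their shares are thus no measure of plasma cells in the tissue. In jejunum this class also carried myeloid genes, as given at the end. Barcodes that reached the marker limit of more than 1 class were 7.41, 6.57, 3.99 and 2.75%, and 2.32, 2.88, 0.652 and 1.26% did not reach the limit of any class. *PTPRC* itself was sparse in macrophage-like barcodes, where 61.6, 47.4, 44.7 and 33.0% had a single UMI of it, compared with 15.4 to 19.2% of T-like barcodes. With at least 2 UMIs of *PTPRC* required, jejunum became 50.2% T-like and 25.4% macrophage-like. Few barcodes lay near the T-like limit, with 187, 114, 81 and 70 on it and 226, 364, 98 and 101 at 1 UMI less.

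Within T-like barcodes the coreceptors also differed between sides. *CD4* without *CD8A* or *CD8B* was seen in 46.0% of T-like barcodes in duodenum (44.7 to 47.3%) and 28.6% in jejunum (27.0 to 30.3%), against 13.0% in cecum (12.2 to 13.8%) and 17.9% in colon (17.01 to 18.8%). After thinning each barcode to 1500 UMIs the shares were 29.5, 18.1, 8.88 and 12.5%, so both small intestine libraries remained above both large intestine libraries. *CD8A* or *CD8B* without *CD4* was seen in 28.8, 47.7, 51.7 and 51.3%, where duodenum alone stood low. Neither coreceptor was seen in 22.1 and 20.6% of small intestine and 33.8 and 28.4% of large intestine T-like barcodes, a share that after thinning was 45.1 and 43.6% against 53.6 and 48.2%.

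**Figure D1:**
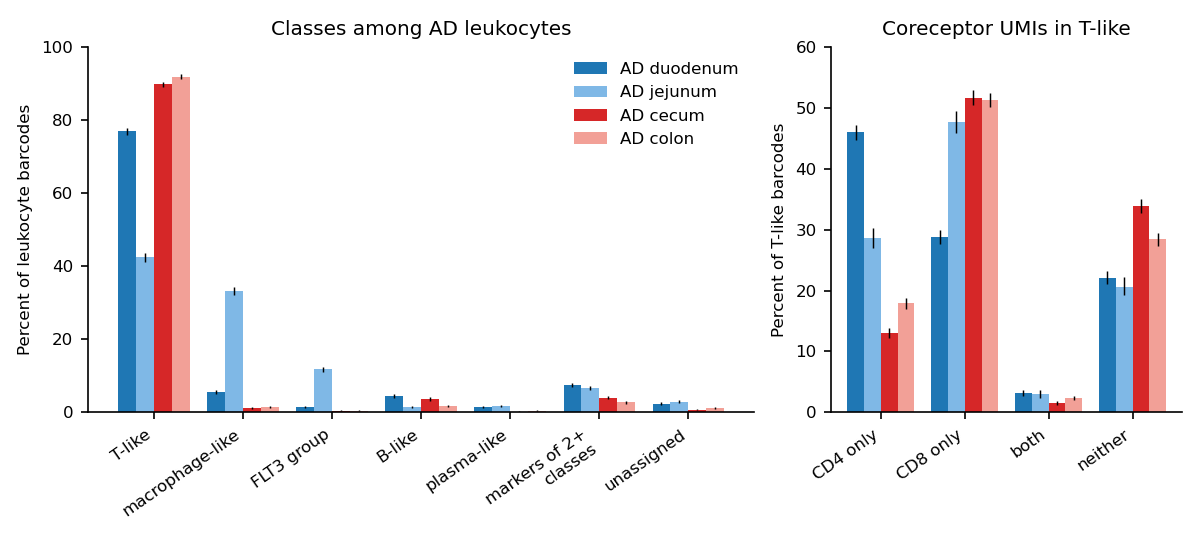
Left, percent of AD leukocyte barcodes in each marker class, and right, percent of T-like barcodes with UMIs of *CD4*, of *CD8A* or *CD8B*, of both or of neither, one bar per library, with 95% exact binomial intervals. T-like barcodes reach 89.9 and 91.9% in cecum and colon and 42.4% in jejunum, where 33.2% are macrophage-like, and *CD4* only barcodes are more frequent in duodenum and jejunum than in cecum and colon.

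Over all leukocytes summed by library, no gene passed an adjusted p of 0.05 between the large and the small intestine in the edgeR quasi-likelihood test of 13225 genes with Benjamini-Hochberg adjustment, so 0% was called in either direction. At an unadjusted p under 0.05 there were 1556 genes, 597 higher in the large and 959 higher in the small intestine. DESeq2 called 240 and 515 in those directions, and edgeR with the kit as a term called 109 (0.824%) and 179 (1.35%), a fit that leaves 1 residual degree of freedom. The call depended on the small intestine libraries, because leaving out duodenum gave 3308 genes and leaving out jejunum 1050, whereas leaving out cecum or colon gave 0. Each such fit sets 1 library against a pair, leaves 1 residual degree of freedom and assumes that the lone library varies like the others, which holds for each fit between the sides below with a library left out. Levels that did not overlap between sides were common in general, with 21.6% of all genes higher in both large intestine libraries and 20.8% higher in both small intestine libraries. In these sums, fewer cells of a type cannot be told apart from less RNA of a gene per cell.

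The genes named here were chosen as the 10 a side of smallest p among those whose sides did not overlap, so their separation follows from the choice and is given as a description. On the large intestine side the smallest p belonged to *CD7*, a surface glycoprotein of T and natural killer (NK) cells, at 48.6 CPM in duodenum and 50.2 in jejunum against 475 in cecum and 416 in colon. Its 2 large intestine levels lay far above both small intestine levels, a log2 fold change of 3.17 ± 0.22 (SE) with an adjusted p of 0.157 by edgeR and 0.0089 with the kit as a term. *CDH17*, a cadherin of liver and intestine, stood at 11.5 and 13.6 CPM in duodenum and jejunum against 75.3 and 78.04 CPM in cecum and colon (log2 2.61 ± 0.20, adjusted p = 0.157). *KLRJ1*, a gene of the killer cell lectin-like receptor family, had 24.8 and 41.3 CPM in duodenum and jejunum against 557 and 464 CPM in cecum and colon (log2 3.95 ± 0.35, adjusted p = 0.201). Cecum and colon lay more than 5 times above duodenum and jejunum in both genes. The near-identical copies in the killer cell receptor families make the assignment of *KLRJ1* reads to this locus uncertain.

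*CCL5*, a chemokine of cytotoxic T cells, was among the most abundant of these transcripts, with 1718 and 1829 CPM in duodenum and jejunum against 9134 and 8353 CPM in cecum and colon (log2 2.30 ± 0.24, adjusted p = 0.201). *CD247*, the zeta chain of the T cell receptor complex, had 365 and 313 CPM in duodenum and jejunum against 1411 and 1567 CPM in cecum and colon (log2 2.13 ± 0.23). Both genes separated the sides by more than 4 times between means. *CD96*, an adhesion receptor of T and NK cells (2.04), *KLRK1*, which encodes the activating receptor NKG2D (1.64), *SPRY2*, an inhibitor of receptor tyrosine kinase signalling (2.45), *NAV2* (2.45) and *AFAP1L2* (2.22) completed the 10, and all 10 had an adjusted p between 0.157 and 0.242 in the main fit, below 0.05 with the kit as a term and below 0.05 without duodenum or without jejunum, but 0.99994 without cecum and 0.99998 without colon.

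On the small intestine side the 10 genes were chosen in the same way. *FABP2*, the intestinal fatty acid binding protein, had the smallest p, at 24.5 CPM in duodenum and 67.7 in jejunum against 1.78 in cecum and 2.005 in colon (log2 -4.61 ± 0.59, adjusted p = 0.242). *HMOX1*, which degrades haem, stood at 45.1 and 187 CPM in duodenum and jejunum against 7.47 and 11.1 CPM in cecum and colon (log2 -3.64 ± 0.75, adjusted p = 0.34). *TIMD4*, a phosphatidylserine receptor of resident macrophages, stood at 62.00 and 233 CPM in duodenum and jejunum against 14.6 and 17.9 CPM in cecum and colon (log2 -3.18 ± 0.67, adjusted p = 0.34). In each of the 3 genes jejunum was highest and duodenum second. *IL6R*, the interleukin-6 receptor (-1.85), *PKIB*, an inhibitor of protein kinase A (-2.83), the growth factor receptor *FLT3* (-3.88), the cytochrome *CYP2S1* (-3.45), the potassium channel *KCNK6* (-1.26), the membrane protein *STOM* (-3.47) and the phospholipase-like *PLBD1* (-3.20) had log2 fold changes in the same direction, with adjusted p values from 0.322 to 0.340. Jejunum was highest in each of these too, with *FLT3* at 16.9 and 74.3 CPM and *STOM* at 45.2 and 197 CPM in duodenum and jejunum. With 1 library left out, the log2 fold change ran from -4.59 to -2.45 for *FLT3*, -4.17 to -2.05 for *STOM*, -3.86 to -1.95 for *PLBD1* and -3.41 to -1.81 for *PKIB*. All 10 passed without duodenum and without jejunum and none without cecum or without colon, and all but *KCNK6* passed with the kit as a term.

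**Figure D2:**
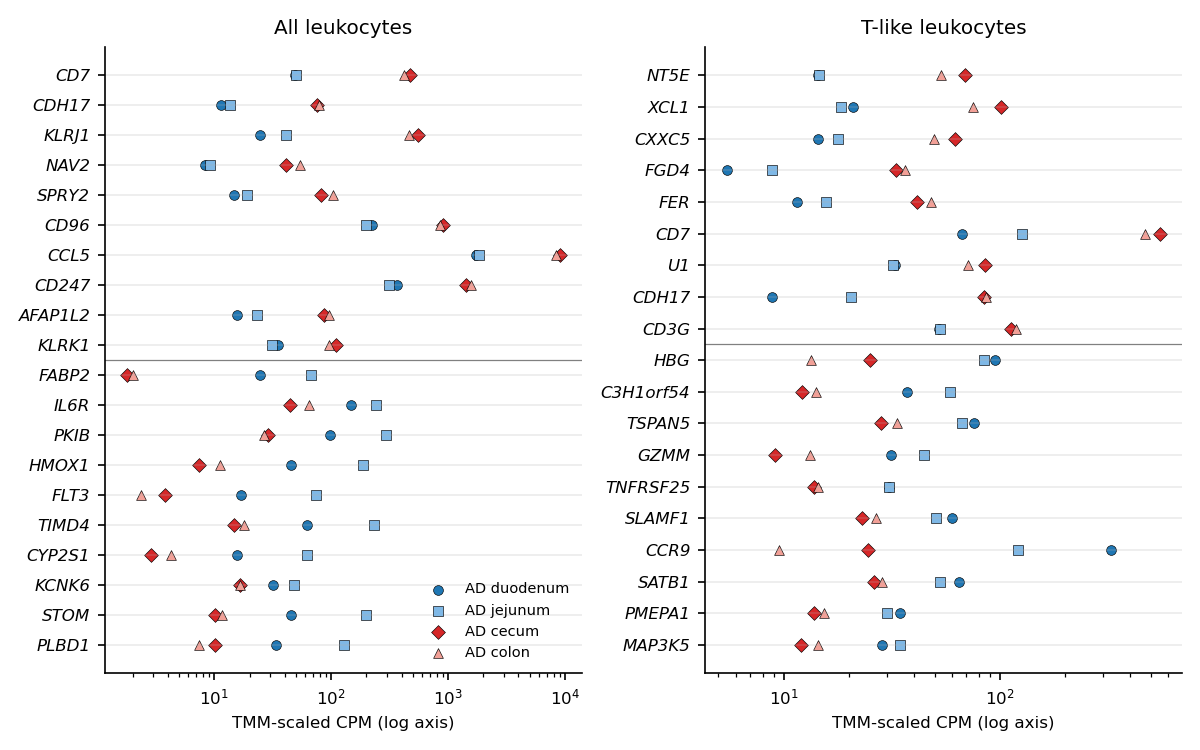
Level of each named gene (TMM-scaled CPM, log axis) in the 4 AD libraries, for all leukocytes (left) and T-like leukocytes (right). Genes above the grey line are from the 10 nearest the threshold with higher levels in cecum and colon (9 of them are shown for T-like leukocytes), those below it the 10 with higher levels in duodenum and jejunum, and all were chosen for sides that do not overlap.

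Several gene lists lay mostly on one side. Among leukocytes, all 12 class II MHC genes, which present antigen to CD4 T cells, were higher in both small intestine libraries than in both large ones, with a median log2 fold change of -2.69 beside 0.01 over all genes. *CD74*, the class II invariant chain, was at 5562, 22382, 1994 and 2112 CPM. Jejunum was at least 4 times above every other library, and duodenum stood above cecum and colon. Of 25 macrophage and monocyte genes, 17 were higher in both small intestine libraries (median -2.41), against the 20.8% of all genes, and *C1QA* was at 754, 4776, 402 and 467 CPM. Of 20 T cell receptor and coreceptor genes, 15 were higher in both large intestine libraries (median 0.78), and of 23 genes for cytotoxic effectors and NK receptors 15 were (median 1.40), against 21.6% of all genes. None of these members was called in the main fit, where no gene was. All 13 mitochondrial genes were also higher in both large intestine libraries, with summed levels of 64848, 54266, 84471 and 73310.0 CPM, and their part in the results was not tested.

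Markers of stromal cells were highest in colon, and those of epithelial cells lowest there. Summed CPM of 9 stromal genes was 5.94, 12.6, 9.73 and 117 in leukocytes, and of 17 epithelial genes 80.5, 125, 89.0 and 48.2. Colon thus carried more than 9 times the stromal signal of any other library. Without barcodes carrying a UMI of stromal, endothelial or erythroid markers, edgeR called 0 genes, with 1734 at an unadjusted p under 0.05. As the main fit also called 0, that count cannot show the part of the stromal signal in the results. In T-like barcodes the stromal sum was 3.65, 9.48, 9.05 and 106 CPM and the epithelial sum 23.9, 41.6, 88.1 and 37.1 CPM. With the kit as a term, 5 of 9 stromal genes were called higher in the large intestine in leukocytes, against 0.824% of all genes. Only 1 of the 9 was higher in both large intestine libraries. In T-like barcodes 5 of 8 were called so, against 1.09%. A call with the kit as a term can thus rest on a signal that is high in colon alone.

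**Figure D3:**
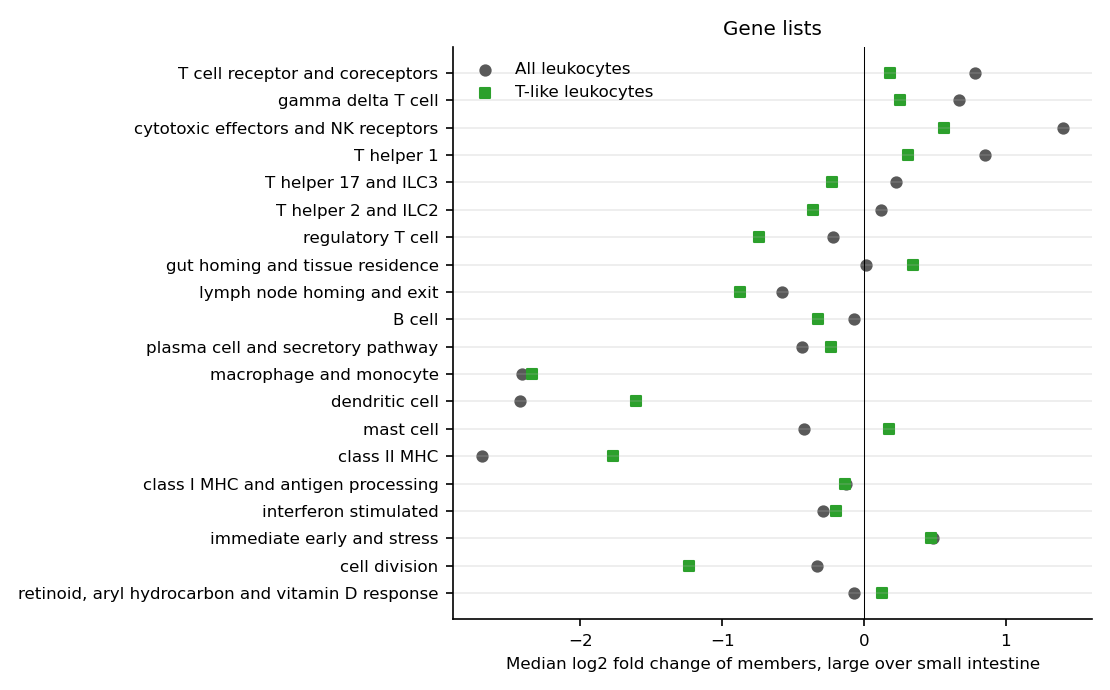
Median log2 fold change, large over small intestine, of the tested members of each leukocyte gene list (stromal, epithelial and other lists of non-leukocyte or mitochondrial genes are not drawn), in all AD leukocytes (circles) and in T-like leukocytes (squares). The lists of class II MHC, macrophage and dendritic cell genes lie furthest to the left in all leukocytes, at -2.69, -2.41 and -2.42, and the cytotoxic list is the furthest to the right of those drawn, at 1.40.

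The T-like class, at 5964, 2974, 6758 and 6913 barcodes, allowed a comparison without most of the other leukocytes, although its mix of coreceptor classes differed between sides as given above. No gene of 12060 passed the threshold in the edgeR fit (0% called in either direction), and 1003 had an unadjusted p under 0.05, 580 higher in the large and 423 higher in the small intestine. DESeq2 called 164 and 116, and edgeR with the kit as a term 131 (1.09%) and 76 (0.630%). Leaving out duodenum gave 917 calls, jejunum 477, cecum 6 and colon 4. Non-overlapping levels were found in 17.9% of genes with the large and 16.0% with the small intestine higher. Median UMIs of the B-like, plasma-like, macrophage-like and mast-like markers were 0 in T-like barcodes, although 6.79, 34.1, 2.86 and 5.03% of them carried at least 1 UMI of a macrophage marker, most often in jejunum. Of 15 macrophage and monocyte genes tested here, 10 were higher in both small intestine libraries and 0 in both large ones (median -2.34). With the kit as a term 5 of them, and 4 of 11 dendritic cell genes, were called higher in the small intestine, against 0.630% of all genes. Carry-over of myeloid RNA into this class was not tested.

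*CCR9* (ENSBTAG00000031348) was higher in the T-like barcodes of the small than of the large intestine in every library. Its level was 325 CPM in duodenum and 121 in jejunum against 24.6 in cecum and 9.55 in colon. Both small intestine libraries lay at more than 4 times either large intestine library, although duodenum was itself well above jejunum. The log2 fold change was -3.71 ± 0.66, with an adjusted p of 0.233 in the main fit, 0.000352 with the kit as a term and 8.07e-09 by DESeq2. Within the lamina propria kit, cecum against duodenum, the log2 ratio was -3.70, and within the multi tissue kit, colon against jejunum, it was -3.60. The adjusted p was 0.00741 without duodenum and 0.00101 without jejunum, but 0.0944 without cecum and 0.220 without colon.

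By barcode, 60.3, 31.3, 4.29 and 1.97% of T-like barcodes had a *CCR9* UMI, at median depths of 3628, 4104.5, 3630 and 3929 UMIs. After thinning to 1500 UMIs the shares were 36.1, 15.7, 2.14 and 0.985%. Macrophage-like barcodes, which should lack the receptor, had 6.41, 6.37, 3.53 and 3.48% at median depths of 3035, 4062, 4932 and 6253 UMIs. In cecum and colon that background rests on 3 of 85 and 4 of 115 barcodes (exact binomial intervals 0.734 to 9.97% and 0.956 to 8.67%). These barcodes were deeper than the T-like ones, and after thinning their shares were 2.47 and 0%. B-like barcodes had 0.366% in cecum (interval to 2.02%) and 0.781% in colon (interval to 4.28%). The background is thus too uncertain to decide whether the cecum and colon T-like shares are expression, and they are not read as such. The T-like shares in duodenum and jejunum were far above the macrophage-like shares.

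The narrower classes were chosen for contrasts after the data had been seen, and *CCR9* passed the main fit in the CD4 T-like and the B-like class. In T-like barcodes with *CD4* and no *CD8A* or *CD8B* it stood at 362 CPM in duodenum and 225 in jejunum against 9.26 in cecum and 7.15 in colon, 1 of 9530 genes called in the edgeR fit (0.0105%), beside 51 (0.535%) higher in the large and 46 (0.483%) higher in the small intestine with the kit as a term. The sides were far apart, at a log2 fold change of -5.18 ± 0.37 and an adjusted p of 0.0191, and the gene passed with each of the 4 libraries left out in turn. In CD8 T-like barcodes it had 276 and 56.2 CPM in duodenum and jejunum against 16.8 and 8.88 CPM in cecum and colon (log2 -3.70 ± 0.78, adjusted p = 0.35, 0.00146 with the kit as a term), where duodenum exceeded jejunum by more than 4 times.

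B-like barcodes also had more *CCR9* in the small than in the large intestine, with jejunum above duodenum here. In the 345, 94, 273 and 128 barcodes of this class, *CCR9* was the 1 gene of 7212 called (0.0139%), with 177 and 92 UMIs in duodenum and jejunum and 1 UMI each in cecum and colon. Its level was 91.6, 185, 0.667 and 1.46 CPM. The ratio of summed levels, small over large intestine, was 127 with a counting interval of 34.8 to 1053. The adjusted p of the edgeR fit was 0.0147, and 0.935 when cecum was left out. A *CCR9* UMI was seen in 22.6, 51.1, 0.366 and 0.781% of B-like barcodes, or 13.9, 22.3, 0 and 0.787% after thinning, with median depths between 4356 and 4740 UMIs.

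*GPR15* (ENSBTAG00000020997) ran in the opposite direction. It is a member of the gut homing list that was not among the genes of the naming rule, and is described after its values were seen. Its level in T-like barcodes was 2.38 CPM in duodenum and 14.1 in jejunum against 89.4 in cecum and 79.2 in colon. Cecum and colon were close to each other and both were more than 5 times above jejunum, which in turn was above duodenum. The log2 fold change was 3.39 ± 0.76, with an adjusted p of 0.297 in the main fit, 0.00507 with the kit as a term and 0.0856 by DESeq2, and it was below 0.05 without duodenum or without jejunum, 0.255 without cecum and 0.229 without colon. The within-kit log2 ratios were 4.97 (cecum against duodenum) and 2.45 (colon against jejunum).

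A *GPR15* UMI was seen in 0.838, 5.68, 26.2 and 26.2% of T-like barcodes, and in 0.342, 3.01, 12.4 and 11.6% after thinning. The macrophage-like background was at most 0.870%, so the cecum and colon shares were well above it. *GPR15* stood in CD4 T-like barcodes at 2.22 and 11.6 CPM in duodenum and jejunum against 129 and 133 CPM in cecum and colon (log2 4.39 ± 0.66, adjusted p = 0.133, 5.56e-05 with the kit as a term). In CD8 T-like barcodes it stood at 3.37 and 13.8 CPM in duodenum and jejunum against 89.1 and 68.5 CPM in cecum and colon (log2 3.202 ± 0.58, adjusted p = 0.305, 0.00551 with the kit as a term). Cecum and colon were above duodenum and jejunum in both coreceptor classes. The gene passed with any 1 library left out in CD4 T-like barcodes, and in CD8 T-like barcodes it passed without duodenum, jejunum or colon and not without cecum (0.107).

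**Figure D4:**
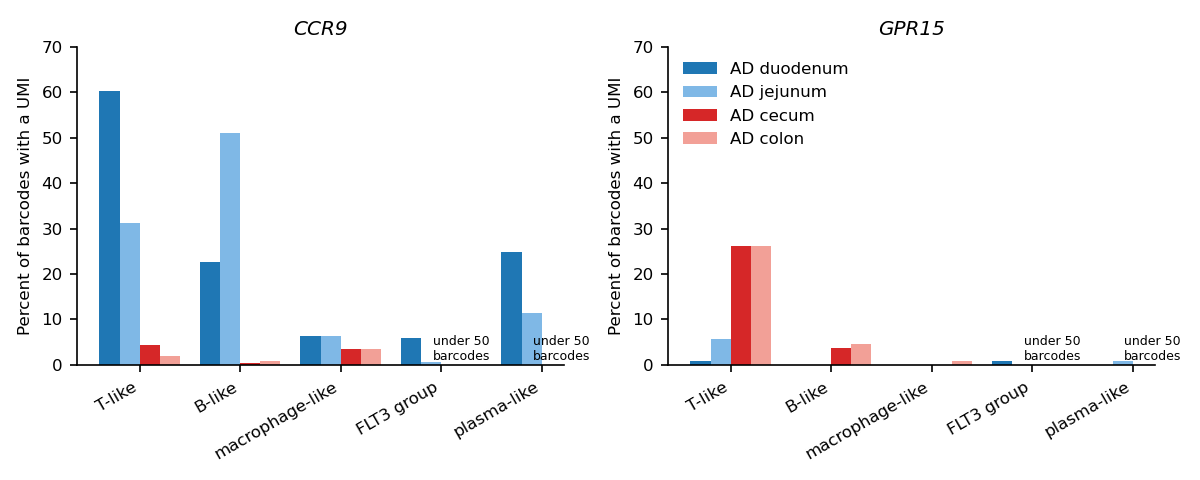
Percent of barcodes with at least 1 UMI of *CCR9* (left) and *GPR15* (right) in each marker class and AD library. *CCR9* reaches 60.3 and 31.3% of T-like barcodes in duodenum and jejunum and 4.29 and 1.97% in cecum and colon, and *GPR15* reaches 26.2% in both large intestine libraries. Classes with under 50 barcodes in cecum and colon are marked.

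Of the 19 tested genes of the gut homing and residence list, *CCR9* and *GPR15* included, 9 were higher in both large intestine libraries and 4 in both small intestine libraries, against 17.9 and 16.0% of all genes (median log2 fold change 0.34, beside -0.02 over all genes). With the kit as a term 3 were called higher in the large and 1 in the small intestine, against 1.09 and 0.630% of all genes. *ITGAE* (CD103), which binds E-cadherin on epithelial cells, was at 23.1 and 33.8 CPM in duodenum and jejunum against 47.6 and 57.8 CPM in cecum and colon (log2 0.89 ± 0.25, adjusted p = 0.385). *ITGA1* (CD49a), a collagen-binding integrin, was at 20.1 and 43.1 CPM in duodenum and jejunum against 62.1 and 95.8 CPM in cecum and colon (log2 1.33 ± 0.41, adjusted p = 0.435). Both integrins were higher in cecum and colon without overlap, and neither passed the main fit. The chains of the gut integrin, *ITGA4* (73.5, 46.7, 43.98 and 58.9 CPM) and *ITGB7* (109.6, 192, 185 and 197 CPM), overlapped between sides.

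*SATB1*, a chromatin organiser of T cell development, had higher levels in the T-like barcodes of the small intestine, at 64.8 and 53.1 CPM in duodenum and jejunum against 26.2 and 28.5 CPM in cecum and colon (log2 -1.11 ± 0.20, adjusted p = 0.233, 0.0734 with the kit as a term). *CCR7*, a chemokine receptor of lymph node homing, was at 25.6, 5.44, 4.29 and 2.38 CPM, highest in duodenum.

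Further genes of the T-like contrast, chosen by the same rule, had higher levels in cecum and colon. *NT5E* (CD73), an enzyme that makes adenosine, stood at 14.4 CPM in duodenum and 14.5 in jejunum against 68.9 in cecum and 53.5 in colon (log2 2.08 ± 0.21, adjusted p = 0.233). *XCL1*, a chemokine that attracts cross-presenting dendritic cells, stood at 20.96 and 18.4 CPM in duodenum and jejunum against 102 and 75.3 CPM in cecum and colon (log2 2.17 ± 0.23, adjusted p = 0.233). Each had near-equal levels in the 2 small intestine libraries, and although neither passed the main fit, both passed with the kit as a term (0.00434 and 0.00373). *CD7* was at 67.01, 127, 552 and 471 CPM (log2 2.40 ± 0.35) and *CDH17* at 8.86, 20.6, 84.2 and 86.5 CPM (log2 2.55 ± 0.41), so both kept their order within T-like barcodes. *CXXC5* (1.79), *FGD4* (2.29), the tyrosine kinase *FER* (1.72) and *U1* (1.27), a small nuclear RNA with many near-identical copies whose counts are uncertain, had log2 fold changes in the same direction. Their adjusted p by edgeR was 0.233 in the main fit and 0.00867, 0.00373, 0.00867 and 0.0424 with the kit as a term. For *CD7* and *CDH17* it was also 0.233, and 0.00501 and 0.00373 with the kit. *CD3G* also met the rule (52.6, 52.7, 112 and 118 CPM), but it helped to define the class and is a description only.

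A *CD7* UMI was seen in 11.3, 16.5, 45.5 and 40.7% of T-like barcodes (6.34, 9.51, 32.5 and 28.2% after thinning), and a *KLRJ1* UMI in 0.771, 1.98, 12.3 and 15.3% (0.649, 1.62, 10.6 and 12.7% after thinning). The share of macrophage-like barcodes was at most 1.74% for *CD7* and 0, 0.215, 1.18 and 2.61% for *KLRJ1*. Cecum and colon had the higher T-like shares of both genes. *CDH17* was seen in 0.855, 2.25, 8.08 and 7.97% of T-like barcodes, beside 0.915, 1.68, 2.35 and 0.87% of macrophage-like ones, so the duodenum and jejunum shares are near that background. In B-like barcodes the order differed, at 21.4, 39.4, 17.6 and 9.38%.

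The genes named with higher T-like levels in the small intestine were chosen by that rule too. *GZMM*, a granule protease, stood at 31.5 and 44.6 CPM in duodenum and jejunum against 9.13 and 13.2 CPM in cecum and colon (log2 -1.76 ± 0.29, adjusted p = 0.233, 0.00775 with the kit as a term). *TNFRSF25*, the death receptor DR3, stood at 30.6 and 30.9 CPM in duodenum and jejunum against 13.8 and 14.4 CPM in cecum and colon (log2 -1.12 ± 0.19, adjusted p = 0.233, 0.0701 with the kit as a term). *SLAMF1*, a costimulatory receptor, stood at 60.4 and 50.7 CPM in duodenum and jejunum against 23.01 and 26.7 CPM in cecum and colon (log2 -1.16 ± 0.20, adjusted p = 0.233, 0.0615 with the kit as a term). Each was about 2 to 4 times higher in the small intestine. *TSPAN5*, a tetraspanin (-1.20), *PMEPA1*, a target and inhibitor of TGF-beta signalling (-1.15), the stress kinase *MAP3K5* (-1.25) and *C3H1orf54* (-1.87) had log2 fold changes in the same direction, with 0.0548, 0.0684, 0.0477 and 0.00718 as the adjusted p with the kit as a term. *C3H1orf54* was at 37.1, 59.1, 12.2 and 14.2 CPM. In NB leukocytes, most of them not T-like, it was at 398, 271, 361 and 76.4 CPM. Carry-over of its RNA from other classes into T-like barcodes was not tested. *HBG*, a globin, was at 94.7, 84.3, 24.98 and 13.3 CPM, but only 5.58, 1.65, 1.42 and 0.796% of T-like barcodes carried it, and the globin genes are close copies whose counts are uncertain. *DHRS3*, which turns retinal back to retinol and is described after its values were seen, was at 7.87, 9.22, 1.42 and 1.47 CPM (log2 -2.56 ± 0.33, adjusted p = 0.233, 0.00867 with the kit as a term). Of 9 tested genes of the list for retinoid, aryl hydrocarbon and vitamin D response, 2 were higher in both large and 2 in both small intestine libraries. This was near the 17.9 and 16.0% of all genes (median log2 fold change 0.13).

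The effector genes did not form a single pattern. *CCL5* was at 2439.6 and 4393 CPM in duodenum and jejunum against 10812 and 9573 CPM in cecum and colon in T-like barcodes (log2 1.58 ± 0.32, adjusted p = 0.256). *CCL4*, another chemokine of activated T cells, was at 331 and 742 CPM in duodenum and jejunum against 1412 and 2033 CPM in cecum and colon (log2 1.68 ± 0.43, adjusted p = 0.345). Both were lowest in duodenum and higher in cecum and colon than in jejunum. The granule genes instead set duodenum apart, with *GNLY* (granulysin) at 166, 1635, 1130.2 and 1370.3 CPM, *GZMA* (granzyme A) at 86.1, 654, 467 and 665 CPM and *PRF1* (perforin) at 63.7, 223, 234 and 216 CPM. For these the sides overlapped, the adjusted p lay between 0.960 and 0.991, and without duodenum the log2 fold change of *GNLY* was -0.39 and that of *GZMA* -0.21, while without jejunum all 3 passed. Of 23 cytotoxic and NK receptor genes, 9 were higher in both large intestine libraries and 2 in both small ones, against 17.9 and 16.0% of all genes (median 0.56).

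*FOXP3*, the factor of regulatory T cells, was at 1.35, 0.729, 0.197 and 0.235 CPM, from 33, 11, 5 and 7 UMIs, and *IL2RA* (CD25) at 94.1, 41.8, 33.9 and 26.1 CPM. Of 14 regulatory T cell genes, 7 were higher in both small intestine libraries and 1 in both large ones, against 16.0 and 17.9% of all genes (median -0.74). In CD4 T-like barcodes 1 of 13 was higher in both small and 2 in both large intestine libraries, against 13.6 and 14.0% (median 0.07), and T-like barcodes of the small intestine held more CD4 barcodes. Of 12 T helper 1 genes in T-like barcodes, 4 were higher in both large and 3 in both small intestine libraries, against 17.9 and 16.0% (median 0.31). The costimulator *ICOS* was at 147, 105, 73.8 and 74.6 CPM, so both small intestine libraries lay above both large ones. The cytokine *IL17F* had 3.52 and 4.24 CPM in duodenum and jejunum against 52.8 and 26.5 CPM in cecum and colon in CD4 T-like barcodes (log2 3.36 ± 0.41, adjusted p = 0.0971, 0.000117 with the kit as a term), and *IL17A* had 9.72, 0.67, 98.8 and 20.4 CPM (log2 3.33 ± 0.98, adjusted p = 0.783). Of the 15 tested T helper 17 and ILC3 genes in this class, 3 were higher in both large intestine libraries and 1 in both small ones, near the 14.0 and 13.6% of all genes, and in T-like barcodes 2 of 16 went each way (median -0.22). With 1 library left out, the log2 fold change in CD4 T-like barcodes ran from 2.78 to 3.78 for *IL17F* and from 1.89 to 6.38 for *IL17A*. Cecum was highest for both cytokines. *CD8A* (227, 324, 268 and 305 CPM) did not separate the sides, whereas *CD4* was at 259, 176, 80.04 and 115 CPM (log2 -1.16 ± 0.29, adjusted p = 0.342).

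CD8 T-like barcodes are a subset of the T-like ones, so their values are no independent check of those above. None of 10603 genes was called by edgeR, 611 had an unadjusted p under 0.05, DESeq2 called 75 and 46, and the fit with the kit called 76 (0.717%) higher in the large and 37 (0.349%) higher in the small intestine. *CDH17* was at 4.91 and 6.46 CPM in duodenum and jejunum against 51.8 and 73.3 CPM in cecum and colon (log2 3.46 ± 0.29, adjusted p = 0.163). *KLRJ1* was at 16.4 and 35.5 CPM in duodenum and jejunum against 339 and 472 CPM in cecum and colon (log2 3.97 ± 0.43, adjusted p = 0.168). Both passed with any 1 of the 4 libraries left out, where the number of calls ran from 11 to 807. *GZMM* in this class was at 87.7 and 74.4 CPM in duodenum and jejunum against 12.9 and 21.3 CPM in cecum and colon (log2 -2.24 ± 0.29), higher in both small intestine libraries (as were 14.3% of all genes), and *CD7* at 100.4 and 117 CPM in duodenum and jejunum against 441 and 473 CPM in cecum and colon (log2 2.07 ± 0.21), higher in both large ones (as were 16.3%).

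**Figure D5:**
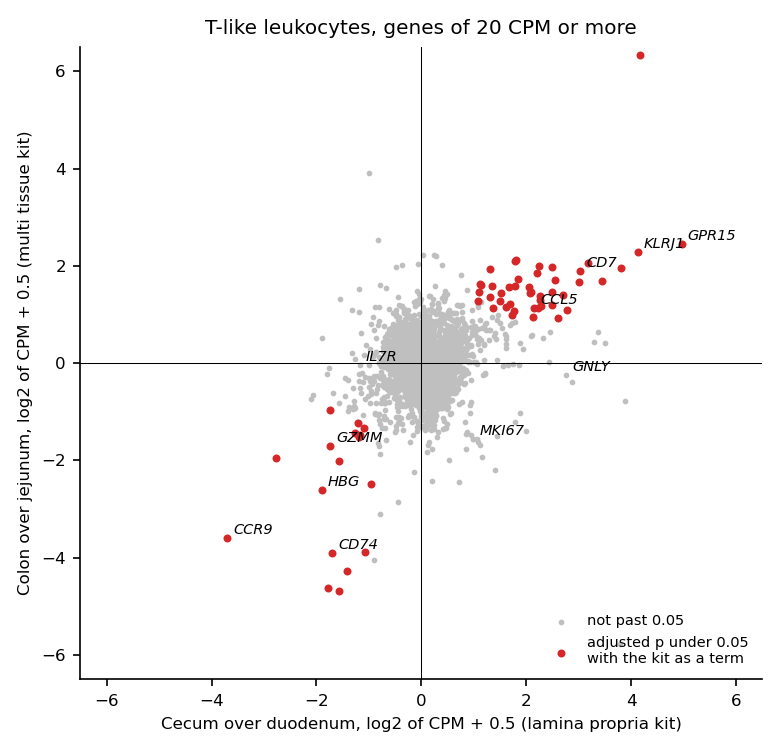
Log2 ratio of cecum to duodenum (x axis, both dissociated with the lamina propria kit) against colon to jejunum (y axis, both with the multi tissue kit) for each gene of at least 20 CPM in T-like leukocytes, from CPM + 0.5. *CCR9* lies at -3.70 and -3.60, and red points have an adjusted p under 0.05 with the kit as a term. Genes such as *GNLY* lie near 0 on the y axis and away from it on the x axis.

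In T-like barcodes jejunum had the highest summed levels of cell division and class II MHC genes. Cell division genes summed to 237, 1896, 319 and 642 CPM, with *MKI67*, which marks dividing cells, at 12.1, 242, 24.6 and 81.1 CPM. The sides overlapped for all 23 of these genes (median log2 fold change -1.23), so none is read as a regional difference. Overlap between 2 libraries a side cannot exclude one. The 10 tested class II MHC genes summed to 677, 2866, 371 and 350.1 CPM, and 6 were higher in both small intestine libraries, against 16.0% of all genes (median -1.77). *CD74* was at 287, 1349, 88.1 and 88.8 CPM in T-like barcodes and was carried by 29.3, 66.5, 14.04 and 19.1% of them (14.1, 33.8, 6.08 and 7.92% after thinning). Jejunum also had the most T-like barcodes with a macrophage marker. Without T-like barcodes carrying a B-like or macrophage-like marker UMI, edgeR called 0 of 11796 genes. As the main fit also called 0, that count cannot show the part of those barcodes in the *CD74* level. *CD74* had a log2 fold change of -3.21 ± 0.71 and an adjusted p of 0.296.

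Macrophage-like barcodes numbered 437, 2325, 85 and 115. This contrast was also chosen after the data had been seen. In it 12 of 7809 genes were called by edgeR, 6 in each direction (0.0768%), and with the kit as a term 30 were higher in the large (0.384%) and 19 in the small intestine (0.243%). *PMP22*, a membrane protein of myelin and other tissues, was at 4.03 CPM in duodenum and 2.38 in jejunum against 66.2 in cecum and 61.6 in colon (log2 4.53 ± 0.33, adjusted p = 0.00417). *CCR1*, a chemokine receptor of monocytes, was at 14.4 and 14.4 CPM in duodenum and jejunum against 76.8 and 102 CPM in cecum and colon (log2 2.66 ± 0.23, adjusted p = 0.00779). *ALOX5AP*, which is needed for leukotriene synthesis, was at 65.02 and 51.5 CPM in duodenum and jejunum against 327 and 249 CPM in cecum and colon (log2 2.31 ± 0.23, adjusted p = 0.0137). These 3 were higher in both large intestine libraries than in both small intestine libraries. *FOSB*, an immediate early transcription factor (2.58), the phospholipase *PLA2G5* (2.07) and the scaffold protein *AHNAK* (2.02) rose as well.

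Among genes higher in the small intestine, *FABP2* was carried by 7.78, 16.8, 2.35 and 0.87% of macrophage-like barcodes. In T-like barcodes, a class that should lack it, the shares were 0.537, 4.304, 0.666 and 0.723%. Macrophage-like barcodes held 224 and 1873 UMIs of it in duodenum and jejunum against 2 and 1 in cecum and colon. The ratio of summed levels was 69.7 with a counting interval of 23.8 to 338, and the adjusted p was 0.00417. *ADTRP* was at 63.9 and 55.5 CPM in duodenum and jejunum against 6.404 and 6.601 CPM in cecum and colon (log2 -3.17 ± 0.31, adjusted p = 0.0137). *C29H11orf24* was at 196 and 194 CPM in duodenum and jejunum against 59.8 and 69.3 CPM in cecum and colon (log2 -1.58 ± 0.19, adjusted p = 0.0342). *JCHAIN*, the joining chain of secreted antibody and a plasma cell gene, was at 665 and 430.4 CPM in duodenum and jejunum against 109 and 125 CPM in cecum and colon (log2 -2.21 ± 0.26, adjusted p = 0.0337), but it was carried by 86.3, 83.9, 29.7 and 51.4% of T-like barcodes as well, a class that should lack it, so it is not read as macrophage expression, and the source of its UMIs was not tested. The remaining 2 called genes have no symbol. The 4 tested epithelial markers in this class summed to 268, 223, 59.8 and 26.4 CPM. Of these 4, 1 was itself called higher in the small intestine, as *FABP2* was. The sum is thus not independent of that gene, and the part of other epithelial RNA in the *FABP2* difference was not tested.

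Immediate early and stress genes in macrophage-like barcodes were higher in both large intestine libraries for 18 of 24 members, against 20.2% of all genes, with a median log2 fold change of 0.91 beside -0.01. In CD4 T-like barcodes 18 of 26 members were higher in both large intestine libraries, against 14.0% of all genes (median 0.88), and 13 of 28 in CD8 T-like barcodes, against 16.3% (median 0.58), and its part in the differences of those classes was not tested. The 1 called member in macrophage-like barcodes was *FOSB*, and *FOS* was in these barcodes at 72.5 and 119.7 CPM in duodenum and jejunum against 525 and 332 CPM in cecum and colon (log2 2.13 ± 0.31, adjusted p = 0.0596). The complement gene *C1QA*, which defined the class, was at 13385, 15586, 19912 and 13820.0 CPM. Without colon 0 genes were called and without cecum 4, whereas 146 genes were called without duodenum and 293 without jejunum. With only 85 and 115 large intestine barcodes, the depth in cecum and colon was 465997 and 878209 UMIs against 1844698 and 11643814 in duodenum and jejunum.

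The NB libraries of the same 4 segments gave a setting in which the same regional contrast could be made, with 784, 2646, 2402 and 1573 leukocytes. Stage, animal and dissociation cannot be told apart in this comparison. T-like barcodes were 6.12, 4.12, 21.5 and 29.8% and macrophage-like barcodes 48.7, 61.1, 25.4 and 8.90% of NB leukocytes, so NB large intestine libraries also held more T-like barcodes than NB small intestine libraries. In the NB contrast 2 of 12786 genes were called (0.0156%), *JCHAIN* and a gene without a symbol. These NB profiles are sums over all classes, in which the share of plasma-like barcodes cannot be told apart from *JCHAIN* per cell. *JCHAIN* was at 11.4 and 10.7 CPM in NB duodenum and jejunum against 1757 and 1327 CPM in NB cecum and colon (adjusted p = 0.0456), and no gene was called without NB duodenum or without NB jejunum.

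Summed over all NB leukocytes, *CCR9* was at 4.95, 5.40, 8.005 and 16.6 CPM (log2 fold change 1.24 ± 0.45, adjusted p = 0.323), not in the AD order. Only 48, 109, 517 and 469 of these NB leukocytes were T-like. In such sums a difference in T-like share cannot be told apart from one in *CCR9* per cell. No *CCR9* level within NB T-like barcodes was taken, so its order there was not tested. The AD leukocyte level was 241, 60.1, 22.4 and 8.71 CPM (log2 -3.28 ± 0.83, adjusted p = 0.34). The difference between the stages, tested as an interaction by edgeR, was 4.51 ± 1.07 on the log2 scale with an adjusted p of 0.423 and so did not pass in a fit where 0.0420% of genes did. *GPR15* had 0 UMIs in both NB small intestine libraries and at 0.549 and 0.411 CPM in NB cecum and colon, compared with 1.89, 5.51, 77.3 and 69.96 CPM in AD leukocytes. The NB level of *CD7* was 17.1, 6.47, 24.9 and 111 CPM, highest in NB colon (adjusted p = 0.315).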

How the data were processed

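Single cells of the AD and NB segments were sequenced as 10x Chromium 3' libraries (v3 chemistry), and the authors deposited raw UMI counts per gene and barcode, made with Cell Ranger 3.1.0 on the ARS-UCD1.2 cattle genome per the labels and methods. The processed counts were used as deposited, and no per-sample column was left unmapped.

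The members, the gene lists and the classes were chosen with earlier results of these data known. Barcodes were filtered as the report describes, with no removal of doublets in the main result. UMIs were summed per library and class and scaled by TMM (factors 0.935 to 1.07 over the AD classes). They were tested with edgeR 4.0.16 (quasi-likelihood, R 4.3.3, Benjamini-Hochberg, 0.05), region as the only term. Genes had to pass edgeR's filter on low counts. Classes rested on marker UMI limits of 2 (T-like, mast-like), 3 (B-like, plasma-like, FLT3 group) and 5 (macrophage-like). Scrublet scores came from scanpy 1.11.5, and the highest, at 0.8% per 1000 cells, marked 7.76 to 9.31% of leukocytes for removal in an alternative. DESeq2 1.42.0 was another alternative.

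Named genes were those called, filled to 10 a side by smallest p among genes of at least 20 CPM and with sides that did not overlap. One gene that met this rule in the T-like contrast is not reported here. Members of the lists with values, and genes marked as such, were added after their values were seen. On counts simulated with the dispersion per gene estimated with the kit as a term, the leukocyte fit of 13225 genes found 97 of 100 genes changed 4-fold and 100 of 100 changed 16-fold, and called 7 unchanged genes. The T-like fit of 12060 genes found 100 of 100 in both and called 9 unchanged genes. With a dispersion of 0.01 for every gene all changed genes were found, and 11 and 5 unchanged genes were called. Neither simulation held a difference between kits, so these shares do not carry over to the real fits, where region was the only term.

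A plasma-like contrast was not run, since cecum and colon had under 50 such barcodes. Sequences were not used here.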

Additional observations from a re-analysis of the deposited data

Results flagged for a closer look

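The regional difference of 6 genes differed between NB and AD leukocytes (edgeR interaction test of 14294 genes, 0.0420% called, against 160 and 38 by DESeq2), each with a higher large-over-small ratio in NB. The median interaction over all genes was 0.12 on the log2 scale, and the values below are to be read relative to it. *MZB1*, a chaperone of antibody secretion, had an NB minus AD log2 difference of 11.46 ± 0.75 (adjusted p = 0.0066), with 183, 100.4, 64.8 and 74.4 CPM in AD duodenum, jejunum, cecum and colon and 0, 0.112, 147 and 101 CPM in NB. This value depends on the prior count, since NB duodenum had 0 and NB jejunum 3 UMIs, and is no bound. *JCHAIN* had a difference of 8.34 ± 0.73 (adjusted p = 0.0335), and *PGLYRP1*, an antibacterial protein, one of 7.18 ± 0.66 (adjusted p = 0.0375), at 0.747, 0.644, 0.252 and 0.251 CPM in AD and 0.801, 0.372, 21.1 and 34.8 CPM in NB. The other 3 genes have no symbol. *MZB1*, *JCHAIN* and ENSBTAG00000047121, which is among those 3, were in the 10 leading genes of the AD plasma-like class. The profiles are sums over all classes. The number of plasma-like barcodes kept by the rule and RNA carried over into other barcodes thus cannot be told apart from a change per cell. Leaving out any of AD cecum, AD colon, NB duodenum or NB jejunum left 1 called gene, and leaving out NB cecum gave 29. Stage, animal and dissociation cannot be told apart in these differences.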

How the results depend on the processing

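The number of genes called depended on the setting. In all leukocytes (0 in the main fit) it was 288 with the kit as a term, 755 by DESeq2, 14 without a filter on low counts, 10 at 20 CPM or more, and 0 to 3308 with 1 library left out. In T-like barcodes (0) it was 207, 280, 480, 14 and 4 to 917, in CD4 T-like barcodes (1) 97, 67, 249, 24 and 21 to 402, and in CD8 T-like barcodes (0) 113, 121, 59, 4 and 11 to 807 in the same order. In macrophage-like barcodes (12) it was 49 with the kit, 69 by DESeq2, 307 without the filter and 0 to 293 with 1 library left out, and in B-like barcodes (1) 2 by DESeq2, 39 without the filter and 0 to 202. In NB leukocytes (2) DESeq2 called 755 and leaving out a library gave 0 to 2364, and in the interaction (6) DESeq2 called 198 and leaving out a library gave 1 to 29. The other barcode filters (mitochondrial share, at least 2 UMIs of *PTPRC*, doublets, other cell types, equal numbers, plasma-like barcodes left out) gave 0 calls in all leukocytes. In T-like barcodes these filters, apart from the one on plasma-like barcodes, gave 0 calls too. So did a stricter class limit and the fit on barcodes without B-like or macrophage-like marker UMIs.

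The large-minus-small difference of the B-like share was -1.78 to 1.33 percentage points with 1 library left out, turning to 1.33 without duodenum and 0.74 without colon, and that of the plasma-like share was -0.86 with at least 2 UMIs of *PTPRC*. The T-like difference was 14.0 points without jejunum and 48.5 without duodenum, the macrophage-like one -4.30 and -31.8, and that of the FLT3 group -1.19 and -11.4. Of 1660 values over 124 single-gene results, 1169 kept direction and side of the threshold, 447 newly passed, 36 no longer passed and 8 changed sign. Signs changed in T-like barcodes, with the range over libraries left out, for *GNLY* (-0.39 to 2.92), *GZMA* (-0.21 to 2.72), *ITGA4* (-0.52 to 0.13) and *ITGB7* (-0.0108 to 0.803) without duodenum, *CD8A* (-0.18 to 0.34) without duodenum and without colon, *MKI67* (-2.34 to 2.13) without jejunum and *FOSB* (-0.19 to 3.23) without colon. The causes were not tested. Limits are 1 animal and 4 libraries, and 85 to 128 macrophage-like or B-like barcodes in some libraries. The kit term pairs duodenum with cecum and jejunum with colon. By replicate number, no paired analysis was possible because the labels give no such numbers. The contrasts in CD4 T-like, CD8 T-like, macrophage-like and B-like barcodes, and the T-like fit that left out genes at over 5 times the T-like level in another class, were chosen after seeing the data. The alternatives listed for a plasma-like contrast were not run.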

Other observations

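In CD4 T-like barcodes, some genes of cholesterol synthesis were picked after their values had been seen, and none of them passed the main fit. *HMGCS1*, which makes the precursor of mevalonate, was at 128 and 135 CPM in duodenum and jejunum against 37.4 and 38.5 CPM in cecum and colon (log2 -1.79 ± 0.23, adjusted p = 0.0971). *IDI1*, an isomerase of the same pathway, was at 47.7 and 60.8 CPM in duodenum and jejunum against 13.03 and 14.7 CPM in cecum and colon (log2 -1.96 ± 0.26, adjusted p = 0.0971). *FDFT1*, the squalene synthase, was at 37.1 and 49.1 CPM in duodenum and jejunum against 8.57 and 11.6 CPM in cecum and colon (log2 -2.08 ± 0.29, adjusted p = 0.0989). In each, both small intestine levels were more than 3 times either large intestine level. *CYP51A1* (-1.74), *SQLE* (-1.71), *MSMO1* (-1.47) and *INSIG1* (-1.83), which restrains the pathway, had log2 fold changes in the same direction, and the adjusted p of these 7 genes was 0.0971 to 0.184 in the main edgeR fit and 0.00197 to 0.0287 with the kit as a term. *SREBF2*, the transcription factor of the pathway, was at 127 and 125 CPM in duodenum and jejunum against 50.1 and 55.7 CPM in cecum and colon (log2 -1.25 ± 0.23, 0.0922 with the kit as a term). *FDPS*, another enzyme of the pathway, did not pass with the kit as a term (log2 -0.80 ± 0.32 in the main fit, adjusted p = 0.809 with the kit). As the genes were picked for their values, no test was made of them as a group and nothing is read about the pathway.

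*CD2*, an adhesion receptor best known from T cells, was carried by 48.5, 54.2, 37.6 and 40.00% of macrophage-like barcodes (27.1, 30.3, 19.8 and 17.4% after thinning), at 277 and 252 CPM in duodenum and jejunum against 143 and 153 CPM in cecum and colon (log2 -0.83 ± 0.18, adjusted p = 0.229). The T cell kinase *LCK* was carried by 1.602, 2.58, 1.18 and 0.87% of the same barcodes and *CD2* by 1.16, 0, 2.56 and 1.56% of B-like barcodes, at median depths of 3035 to 6253 UMIs in the macrophage-like and 4356 to 4740 in the B-like class. In jejunum, barcodes over the plasma cell marker limit also carried myeloid genes, with *TYROBP* in 55.3% and *FLT3* in 56.1% of them, against 9.73 and 15.04% in duodenum, so the class does not hold plasma cells alone there.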
